A study of Ovis aries with 15 samples.

Results

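Gene expression in fetal sheep muscle was compared between 80 d and 120 d of development, the first and the last of the fetal stages sampled, to show what changed over the whole fetal span covered by the study. The muscle was longissimus dorsi (LD), a large muscle of the back that serves posture and locomotion. Arrays were assigned by their stage labels alone: 3 arrays of 80 d were set against 3 of 120 d, so that 6 of the 15 arrays of the series were compared, and 3 arrays of 100 d were used to place the middle stage. Each array came from 1 animal, and each stage holds different animals of a Dorset, Suffolk and Rambouillet cross. By the study's methods the 80 d fetuses were 3 males, whereas 100 d and 120 d each held 2 males and 1 female. The labels do not give the sex of single animals, so sex and stage cannot be told apart for any gene that differs between male and female fetuses.

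The values were MAS5 signals, intensities on a linear scale with each array scaled by the authors to 200. Ovine RNA was hybridised to a bovine array, so a low signal can also reflect a mismatch between the species. A probe set, the group of short oligonucleotides that reads 1 transcript, was tested where its signal reached 50 on at least 3 of the 9 fetal arrays. This kept 14547 of 24016 probe sets (60.6%), of which 9282 carried 1 gene symbol and named 7122 genes. Where several probe sets read a gene, the brightest on average over the fetal arrays stands for it. The tissue label was borne out by the defining markers: all 9 skeletal muscle markers on the array passed the filter, and their summed signal lay between 81700 and 108000 on the 80 d arrays and between 123000 and 157000 on the 120 d arrays. Fast troponin C (TNNC2), the calcium sensor of the fast thin filament, had a mean signal of 21000 at 80 d and 22700 at 120 d.

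In the fetus, muscle first gains fibres through the division of myoblasts and their fusion into myotubes, and later enlarges the fibres already formed. As fibres mature, embryonic and fetal isoforms of the contractile proteins are replaced by adult fast and slow isoforms, the membranes that release and recover calcium are completed, and the enzymes that supply ATP accumulate. Connective tissue, vessels and nerves are laid down around the fibres over the same period.

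Between 80 d and 120 d, 15 of 29 genes of glycolysis and glycogen metabolism and 13 of 27 of the TCA cycle and pyruvate dehydrogenase rose. Over the same span 27 of 56 cell cycle genes and 6 of 9 genes of a mixed fetal list, labelled RNA-binding and growth, fell. Without 1 array these 4 counts went as low as 9, 2, 11 and 1, in that order. Counts for the other lists are given below, and in most of them most members did not pass. A moderated test (limma, with Benjamini-Hochberg adjustment over all probe sets) called 1052 of 14547 probe sets at an adjusted p under 0.05 (7.23%), 525 higher at 120 d (3.61%) and 527 lower (3.62%). Of these, 46 of the higher passed the signal filter only through the 120 d arrays and 40 of the lower only through the 80 d arrays, so that they had to differ to be tested. The signals of the 3 arrays of 80 d and the 3 of 120 d did not overlap in any of the 1052, while groups that did not overlap were found for 28.1% of all probe sets tested. The median fold was 2.08 among those called higher and 2.05 among those called lower. A fold of at least 8 was reached by 19 probe sets called higher and by 3 called lower, with mean signals under 50 set to 50. By gene, 619 of 7122 were called (8.69%), 300 higher (4.21%) and 319 lower (4.48%). At the stricter threshold of 0.01, 281 probe sets passed (1.93%), 158 of them higher (1.09%) and 123 lower (0.846%), and 22.1% had a p under 0.05 before adjustment. The size of the call set rested on the arrays in the fit. Leaving out 80 d replicate 1, 2 or 3 gave 548, 404 or 483 calls. Without 120 d replicate 1 or 2 there were 607 or 502. Each of 9 runs left out 1 fetal array. Of the 135 genes followed by name, 70 kept their call in every run and 65 lost it in at least 1. Their direction could not change in these runs, since the 80 d and 120 d signals of called probe sets did not overlap. With the arrays scaled to the spiked hybridisation controls in place of their own mean, the median change of all probe sets moved from -0.03 to 0.21 on the log2 scale and the split became 635 higher and 170 lower, so the directions below are relative to the median probe set.

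**Figure D1:**
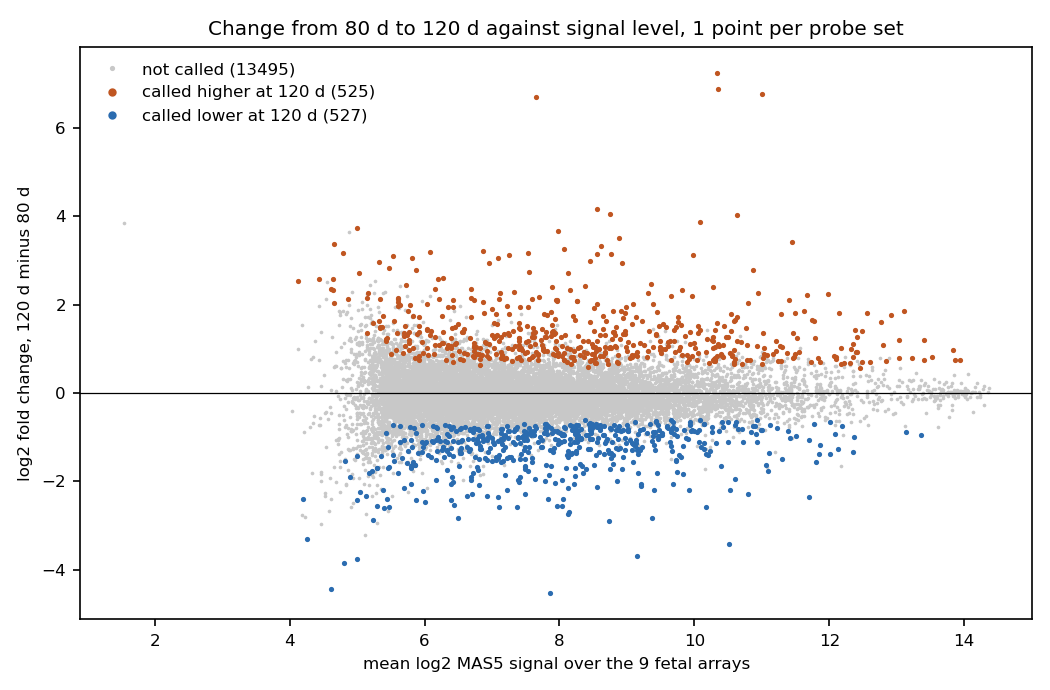
Log2 fold change from 80 d to 120 d (vertical axis) against mean log2 MAS5 signal over the 9 fetal arrays (horizontal axis), 1 point per probe set, with the 525 called higher at 120 d in orange, the 527 called lower in blue and the 13495 not called in grey. Calls lie on both sides of 0 at every level, and 13.8% of the brightest probe sets (mean log2 signal over 10) were called against 4.36% of the dimmest (up to 6).

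Signs of RNA quality at the actin controls moved with stage. The actin 3′/5′ ratio, of control probe sets at either end of a transcript whose gene is annotated as skeletal actin, went from 1.88 ± 0.289 (SD, n = 3) on the 80 d arrays through 1.53 ± 0.237 to 1.03 ± 0.104 on the 120 d arrays, without overlap between the outer stages (1.66 to 2.21 against 0.933 to 1.14). The ratio of the same 3′ end to the middle of the transcript also went down, from 1.2 ± 0.0351 (1.17 to 1.24) through 1.15 ± 0.0907 to 1.05 ± 0.0923 (0.956 to 1.14). For GAPDH the 3′/5′ ratio was 1.09 ± 0.117, 1.13 ± 0.0361 and 1.14 ± 0.0513. Means of the 3′/5′ ratio over the same 3 stages were 1.26, 1.07 and 1.18 for cyclophilin and 0.755, 0.907 and 0.62 for eIF-4E. For EF1A they were 0.0115, 0.0177 and 0.017. With the actin ratio as a covariate 2 probe sets were called, and the ratio and stage cannot be told apart on these arrays. With the GAPDH ratio as a covariate 845 were called. That ratio overlapped between 80 d (0.99 to 1.22) and 120 d (1.08 to 1.18), so the fit with it does not adjust for the actin ratio. Median signal did not move in the same way (64.1 ± 2.71, 66 ± 3.17 and 64.1 ± 4.65). Since the muscle was measured in bulk, fewer cells of a type and less RNA per cell cannot be told apart in any result below.

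With each gene read by its brightest probe set, the largest rise belonged to FBP2, the muscle form of fructose bisphosphatase, while 3 less bright probe sets annotated MYH1, given below, rose by more. The FBP2 signals were 23, 3.5 and 31.9 at 80 d, then 416, 492 and 359 at 100 d and 1439.9, 1116 and 1782 at 120 d. All 80 d arrays lay under 50 and all 120 d arrays above every array of 100 d, a rise of at least 28.4-fold (log2 change 6.70 ± 0.70 SE, adjusted p = 0.0012). ART3, an ecto-ADP-ribosyltransferase family member, gave 108, 79.6 and 62.4 at 80 d, then 382, 439 and 540.1 at 100 d and 1411, 1285 and 1672 at 120 d. The stages were fully separated, and the rise was 17.8-fold (log2 change 4.16 ± 0.24 SE, adjusted p = 4.7e-05), whereas another probe set of ART3 did not pass (log2 change 0.61, adjusted p = 0.14). TMOD4, the skeletal muscle tropomodulin that caps the pointed ends of thin filaments, read 278, 301 and 414 at 80 d, 1622, 2891 and 2566 at 100 d and 5343, 5023 and 5778 at 120 d, a rise of 16.5-fold (log2 change 4.04 ± 0.25 SE, adjusted p = 7.6e-05). ACTN3, the alpha-actinin of fast fibres, went from 211, 247 and 339.8 through 769, 1710.1 and 1593 to 3581, 4369 and 3585. The highest 80 d array was thus below the lowest 100 d array, and the rise over the whole span was 14.7-fold (log2 change 3.88 ± 0.32 SE, adjusted p = 4e-04). These 4 genes kept their calls without any 1 of the 9 fetal arrays.

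The other risers among the 12 with the largest fold were of several kinds. HHATL, a relative of the hedgehog acyltransferase, rose 11.4-fold, from 129 ± 11.8 to 1470 ± 247 (mean ± SD, n = 3, as for the means below). PPP1R3C, which directs protein phosphatase 1 to glycogen, rose 10-fold, from 131 to 1310. RPL3L, the striated muscle form of ribosomal protein L3, rose 9.59-fold, from 78 ± 9.67 to 748 ± 88.6. CKMT2, the mitochondrial creatine kinase of striated muscle, rose 8.85-fold, and the fibrinogen-like protein FGL2 rose 8.81-fold. PEBP4, of the phosphatidylethanolamine-binding family, and BHLHE40, a transcriptional repressor linked to the circadian clock, rose 7.96-fold and 7.74-fold. DUSP12, a dual specificity phosphatase, rose 8.73-fold by its brightest probe set, but its other probe set did not pass and pointed the other way (log2 change -0.69, adjusted p = 0.2), so the direction for that gene is uncertain. All 12 were called without any 1 of the 9 arrays.

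Among the genes that fell, NNAT (neuronatin, an imprinted gene for a small membrane protein) led. Its signals were 2161, 2012 and 1799 at 80 d, then 666, 536 and 609 at 100 d and 134, 187 and 149 at 120 d. No value of one stage reached into another, and the fall over the whole span was 12.8-fold (log2 change -3.68 ± 0.18 SE, adjusted p = 2.6e-05). CKB, the brain form of creatine kinase that precedes the muscle form, read 673, 814 and 819 at 80 d and 165, 91.4 and 108 at 120 d, a fall of 6.52-fold (log2 change -2.70 ± 0.25 SE, adjusted p = 0.00066). CRABP1, a binding protein for retinoic acid, read 334, 269.6 and 368 at 80 d and 44, 38.2 and 90.7 at 120 d, with 120 d replicate 3 higher than its group and still far below all of 80 d. Its fall was 6.01-fold (log2 change -2.59 ± 0.31 SE, adjusted p = 0.0021). STK26, a serine/threonine kinase, fell 6.66-fold, with a wide spread at 80 d (384, 985 and 925) and none of the 120 d arrays above 140.2.

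MAPK8IP1, a scaffold for JNK signalling, FRMD3, a protein with a FERM domain, and DPYSL5, a collapsin response mediator protein, fell 5.92-fold, 5.89-fold and 5.84-fold. RGN, the calcium-binding protein regucalcin, fell 5.93-fold by its brightest probe set, while its other probe set had a log2 change of 1.53 that did not pass (adjusted p = 0.32). DBN1 (drebrin, which binds actin) fell 5.31-fold and PRSS35, a protease-like secreted protein, fell 5.09-fold; both lost their calls without 80 d replicate 2 or 3, with adjusted p-values up to 0.067 and 0.077. The remaining members of the 12, TNC and POSTN, are matrix genes and are given with the matrix below.

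**Figure D2:**
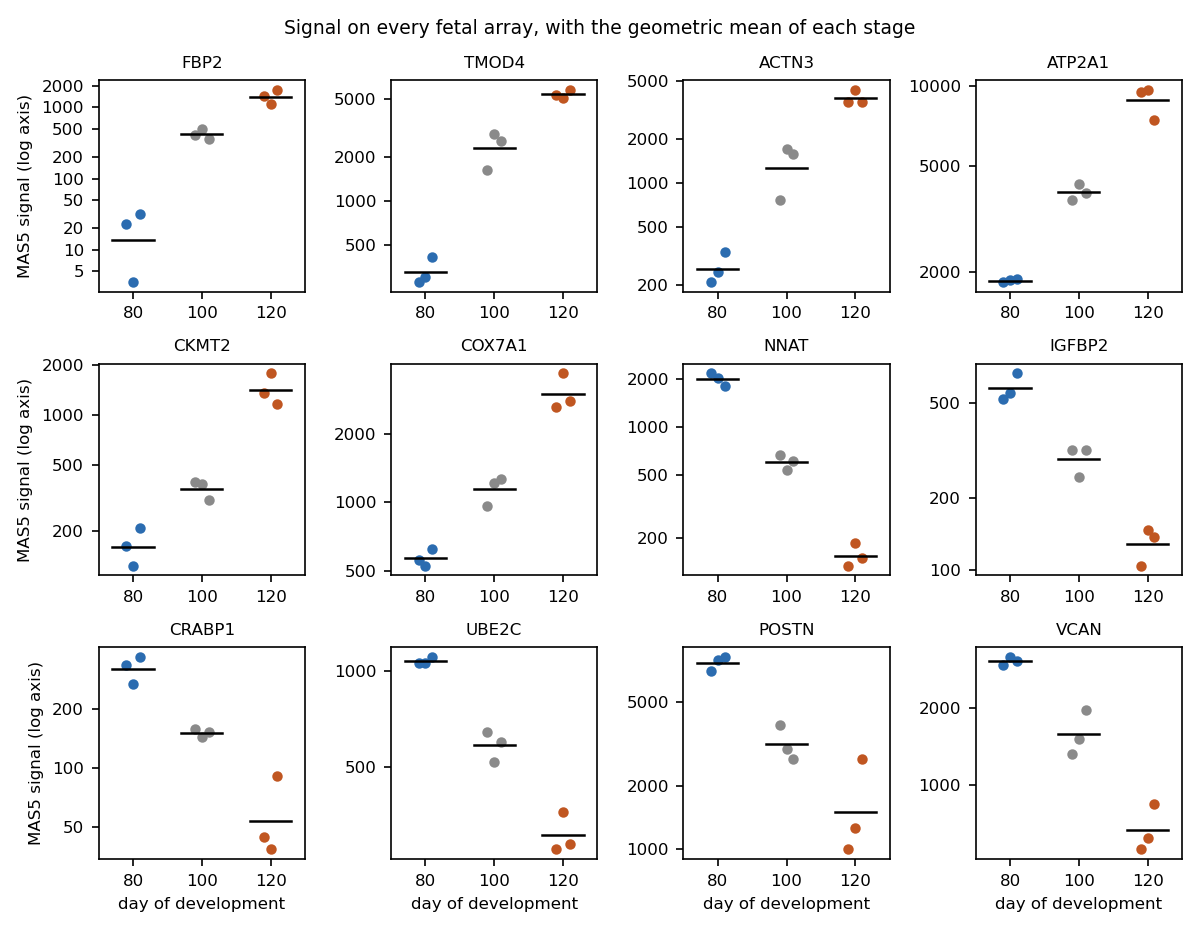
MAS5 signal (log axis) on each of the 9 fetal arrays against day of development for 6 genes that rose and 6 that fell, with points for single arrays (blue 80 d, grey 100 d, orange 120 d) and a bar at the geometric mean of each stage. In each panel the 80 d and 120 d points are separate, and the 100 d geometric mean lies between the others, as for NNAT with 601 at 100 d between 1990 at 80 d and 155 at 120 d.

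Contractile genes were compared by isoform class, with 3.61% of all probe sets and 4.21% of named genes called higher as the background. Called lower were 4.48% of named genes. Brighter probe sets were called more often (13.8% with a mean log2 signal over 10, 4.36% up to 6). No list here or below was matched to genes of like signal. Of 8 slow isoforms past the filter 4 rose and none fell, with a median log2 change of 0.98 against -0.03 over all named genes. TNNT1, slow troponin T, which ties troponin to tropomyosin, read 2549, 2576 and 2292 at 80 d, 7062, 3886 and 3126 at 100 d and 9054, 9150.3 and 7758 at 120 d. All 3 arrays of 120 d were above the highest of the earlier stages, and the rise was 3.5-fold (log2 change 1.81 ± 0.28 SE, adjusted p = 0.0074). MYH7, the slow myosin heavy chain, rose 2.32-fold by its brightest probe set (5860 to 13700, adjusted p = 0.029). Another probe set of MYH7 did not pass (log2 change 0.31, adjusted p = 0.32). MYL3, the slow and ventricular essential light chain, rose 4.38-fold from 90.4, 74.6 and 99.7 to 561, 254 and 396. The regulatory light chain MYL2 rose 1.67-fold. The slow count fell to 1 without any 1 of the 80 d arrays or 120 d replicate 1, and to 2 without 120 d replicate 2. MYH7, MYL2 and MYL3 lost their calls without any 80 d array and without 120 d replicate 1, MYH7 and MYL2 also without 120 d replicate 2, MYL2 and MYL3 without 120 d replicate 3 and MYL2 without 100 d replicate 2. At the most their adjusted p-values reached 0.095, 0.14 and 0.078.

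Of 8 fast isoforms 2 rose and none fell (median 0.29). Beside ACTN3 it was TNNT3, fast troponin T, which rose 1.7-fold from 11600 ± 1350 to 19700 ± 3150, a call that was lost without any 1 of the 80 d arrays, of 100 d replicates 2 and 3 or of 120 d replicates 1 and 2 (adjusted p up to 0.15). The fast light chain MYL1 (19700 and 21900), TNNC2 and the fast inhibitory subunit TNNI2 (14800 and 20200) were already among the brightest genes at 80 d and did not pass. These counts read each gene by its brightest probe set. Where a call in any probe set of a gene was counted, 3 fast and 4 slow isoforms rose, and the probe sets of MYH1, given below, disagreed. Of 6 developmental isoforms 2 fell and none rose (median -0.37). TNNT2, the cardiac and embryonic troponin T, read 322, 357 and 390.3 at 80 d and 113, 62.9 and 106 at 120 d, a fall of 3.9-fold (log2 change -1.97 ± 0.24 SE, adjusted p = 0.0024). MYL4, the embryonic and atrial light chain, fell 1.93-fold, from 14400 to 7560, a call that needed every 80 d array, 100 d replicate 3 and 120 d replicates 1 and 3 (adjusted p up to 0.096). The MYL4 call was also lost with the arrays scaled to the hybridisation controls. The embryonic and perinatal heavy chains MYH3 (log2 change -0.33 ± 0.23 SE) and MYH8 (0.13 ± 0.15) did not pass, and neither did cardiac alpha-actin ACTC1 (-0.42 ± 0.26).

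For MYH1, the heavy chain of fast fibres, the probe sets disagreed, and the following was chosen after the values were seen. Of 8 probe sets annotated to the gene 6 rose and 2 did not pass. The one with the steepest rise read 85.1, 83.3 and 133 at 80 d, 846, 1592 and 2400.3 at 100 d and 13138, 16598 and 15215 at 120 d (log2 change 7.25 ± 0.36 SE, adjusted p = 2.6e-05). Another of the 6 read 114, 161 and 163 at 80 d and 12602, 19616 and 15698 at 120 d (6.77 ± 0.24). The brightest on average over the fetal arrays read 8865, 8967 and 9004 at 80 d and 6736, 8722 and 10788 at 120 d, with stages that overlap (-0.06 ± 0.25, adjusted p = 0.93). Its mean signal on the arrays after birth was 445 at 150 d and 14.2 at 230 d, whereas that of the steepest riser was 29000 and 37900. The skeletal myosin heavy chain genes are near-identical in long stretches, so which of them each probe set reads in sheep is uncertain.

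**Figure D3:**
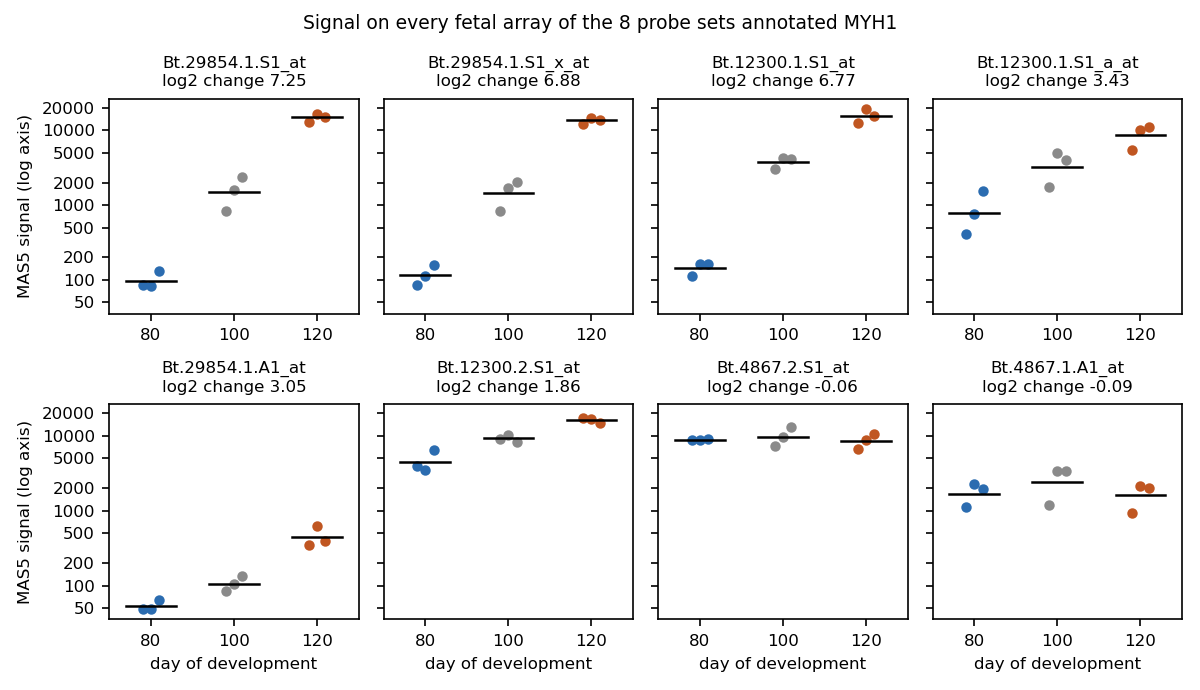
MAS5 signal (log axis, the same range in all panels) on each fetal array against day of development for the 8 probe sets annotated MYH1, in order of their log2 change, with bars at the geometric mean of each stage. The geometric means of the first 6 panels rise from stage to stage, by 1.86 to 7.25 on the log2 scale from 80 d to 120 d, and the last 2, from 1 probe set family, stay level (-0.06 and -0.09).

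Structural proteins of the thin filament, Z-disc and M-band rose in 6 of 21 cases (4.21% over all named genes) and fell in none (median 0.59). The count stayed between 5 and 7 without any 1 array. TCAP (telethonin, the cap of titin at the Z-disc) read 1743, 1124 and 1725 at 80 d and 7314, 6464 and 7230.4 at 120 d, 4.66-fold higher. MYOZ1, the calsarcin of fast fibres, rose 3.04-fold from 4060 ± 271 to 12400 ± 1300, MYOT (myotilin) rose 2.43-fold and ACTN2, the general alpha-actinin of the Z-disc, rose 2.15-fold. With TMOD4 these are Z-disc and thin filament end proteins, and each kept its call without any 1 array. Skeletal alpha-actin ACTA1 itself (22200 and 18300) and desmin (5300 and 7590), the intermediate filament between myofibrils, did not pass.

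In excitation-contraction coupling 3 of 14 genes rose (4.21% over all named genes) and none fell (median 0.45), the same count in each run without 1 array. ATP2A1, the calcium pump of fast fibres, read 1842, 1868 and 1885 at 80 d, 3726, 4286 and 3976 at 100 d and 9515, 9680.3 and 7437 at 120 d. The stages were separated by far more than their spread, and the rise was 4.73-fold (log2 change 2.24 ± 0.16 SE, adjusted p = 0.00024). PLN (phospholamban, the inhibitor of the slow fibre pump) read 75.3, 147 and 131 at 80 d and 943, 572 and 783 at 120 d, a rise of 6.63-fold. STAC3, which holds the voltage sensor to the release channel, rose 2.46-fold. The slow and cardiac pump ATP2A2 (5510 and 7390) and the pump regulator sarcolipin SLN (13000 and 17500) did not pass. Of 7 neuromuscular junction genes 1 rose: CHRNE, the adult epsilon subunit of the acetylcholine receptor, read 38, 55.4 and 45.9 at 80 d and 306, 153 and 179 at 120 d, at least 4.06-fold higher, while the fetal gamma subunit CHRNG did not pass (log2 change -0.35 ± 0.29 SE). The CHRNE call was lost without any array but 100 d replicates 1 and 3 (adjusted p up to 0.1). None of 11 genes of the dystrophin complex and costamere passed.

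In glycolysis and glycogen metabolism 15 of 29 genes were higher at 120 d and 1 was lower, with a median log2 change of 0.87. Over all named genes 4.21% were higher and 4.48% lower. The summed signal of the list went from between 46900 and 58900 at 80 d to between 100000 and 121000 at 120 d. ENO3, the muscle enolase, read 4634, 3436 and 4301 at 80 d, 8092, 8472 and 7533 at 100 d and 15402, 14058 and 12651 at 120 d, a rise of 3.42-fold (log2 change 1.77 ± 0.17 SE, adjusted p = 0.00086). PGAM2, the muscle phosphoglycerate mutase, rose 3.51-fold from 4075, 2547 and 3101 to 11387, 12735 and 9607, and LDHA, the lactate dehydrogenase subunit of fast muscle, rose 2.64-fold by its brightest probe set, with 0.01 on the log2 scale in another (adjusted p = 0.99). The widely expressed counterparts ENO1 (log2 change 0.41 ± 0.19 SE) and PGAM1 (0.05 ± 0.21) did not pass. Neither did LDHB (-0.11 ± 0.16), the other lactate dehydrogenase subunit. SLC2A1, the glucose transporter of most fetal tissues, was the gene that fell, 2.11-fold, from 249.7, 283 and 312 to 101, 169 and 139. This call was lost without 80 d replicate 2 or 3 or 120 d replicate 1 (adjusted p up to 0.081), and with the arrays scaled to the hybridisation controls. The 15 became 9 without 80 d replicate 2 and lay between 10 and 15 in the other runs.

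The creatine kinase and purine nucleotide system showed 6 of 13 genes higher (4.21% over all named genes) and 1, CKB, lower (median 0.87). CKMT2 read 162, 122 and 206 at 80 d, 393, 381 and 306 at 100 d and 1363, 1781 and 1169 at 120 d. CKM, the muscle creatine kinase, was among the brightest genes of the tissue at both stages and rose 1.67-fold, from 12000 to 20000; the call did not hold without any 1 of the 80 d arrays, of 100 d replicates 2 and 3 or of 120 d replicates 1 and 2 (adjusted p up to 0.12). MB (myoglobin, the oxygen store of muscle) rose 2.9-fold from 370.3, 412 and 446 to 1499, 1271 and 867. AK1, the cytosolic adenylate kinase, rose 1.99-fold and GATM, which makes the precursor of creatine, rose 3.11-fold; AK1 was not called without 80 d replicate 2 or 3 or 120 d replicate 1 or 2, and GATM without any 80 d or 120 d array (adjusted p up to 0.063 and 0.095). The 6 became 3 without 80 d replicate 2 or 3 or 120 d replicate 1 or 2.

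In the TCA cycle and pyruvate dehydrogenase list 13 of 27 genes were higher (4.21% over all named genes) and none lower. All 27 had a log2 change above 0 (median 0.74). One of the 13 passed the signal filter only through the 120 d arrays. SDHB, the iron-sulphur subunit of succinate dehydrogenase, read 1837, 1522 and 1592 at 80 d, 2615, 1959 and 1959 at 100 d and 4561, 3579 and 3246 at 120 d, 2.28-fold higher. PDK4, the kinase that holds pyruvate dehydrogenase inactive, was under 50 on every 80 d array (39.6, 41.5 and 44) and read 252, 179 and 216 at 120 d, at least 4.28-fold higher (log2 change 2.36 ± 0.20 SE, adjusted p = 0.00044). These 2 were called in each run without 1 array, whereas the list's count was between 2 and 8 without any 1 array other than 100 d replicate 1. Without 1 array the rest of the named members, IDH2 (2.71-fold), IDH3G (2.23-fold) and PDHA1 (2.06-fold), of isocitrate and pyruvate dehydrogenase, lost their calls in 4, 6 and 3 of 9 runs, among them those without 80 d replicate 2, 80 d replicate 3 or 120 d replicate 2. Another probe set of PDHA1 did not pass (log2 change 0.58, adjusted p = 0.18).

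Among respiratory chain and ATP synthase subunits 19 of 72 were higher and 1 was lower, against 4.21% and 4.48% of all named genes. A log2 change above 0 was found for 66 (median 0.58). Those shares are not matched for signal, and among the brightest probe sets 13.8% were called in either direction. COX7A1, the heart and muscle form of a cytochrome oxidase subunit, read 554, 525 and 624 at 80 d, 956, 1214 and 1262 at 100 d and 2622, 3681 and 2780.0 at 120 d. It rose 5.29-fold (log2 change 2.40 ± 0.20 SE, adjusted p = 4e-04), while its liver counterpart COX7A2 was the subunit that fell, 1.75-fold, from 2150 to 1220. COX8B, the muscle form of subunit 8, read 497, 457 and 535 at 80 d and 1122, 1098 and 1150.3 at 120 d (2.27-fold higher), with a log2 change of 0.08 in another probe set (adjusted p = 0.94), and the widely expressed COX8A did not pass (0.02 ± 0.25 SE). UQCRC2, a core protein of complex III, rose 2.13-fold by its brightest probe set, with a log2 change of -0.07 in its other one (adjusted p = 0.92). The complex I subunits NDUFA13 and NDUFS7 rose 2.04-fold and 2.08-fold. The call of COX7A2 was lost in 7 of 9 runs, all but those without 80 d replicate 1 or 100 d replicate 1 (adjusted p up to 0.12), that of NDUFA13 without 80 d replicate 2 or 3, and that of NDUFS7 when any 80 d array, or 120 d replicate 1 or 2, was left out. With the arrays scaled to the hybridisation controls no subunit was called lower. The 19 became between 4 and 12 without any 1 of the 80 d arrays, 100 d replicate 2 or 120 d replicate 1 or 2.

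Fatty acid oxidation had 5 of 23 genes higher (4.21% over all named genes) and none lower (median 0.53). HADH, which carries out the third step of each round, read 1036, 909.9 and 1249 at 80 d and 2464, 2363 and 2418 at 120 d, 2.29-fold higher (log2 change 1.19 ± 0.19 SE, adjusted p = 0.0081). ACADVL, the first enzyme for very long chains, rose 2.06-fold and the fatty acid transporter CD36 rose 1.95-fold, from 1120 ± 181 to 2200 ± 454. ACADVL was called only in the runs without 100 d replicate 1 or 3 (adjusted p up to 0.14), CD36 was not called without 80 d replicate 2 or 3 or 120 d replicate 1 or 3, and the list's 5 became between 1 and 3 without any array but 100 d replicates 1 and 3. Among regulators of mitochondria and coenzyme Q genes 4 of 20 were higher (median 0.38). COQ8A, needed for coenzyme Q synthesis, read 186, 153 and 134 at 80 d and 728, 1127 and 734 at 120 d, 5.4-fold higher (log2 change 2.43 ± 0.23 SE, adjusted p = 0.00078). SLC25A4, the muscle ADP/ATP carrier, rose 2.17-fold, except that it was not called without 80 d replicate 2 (adjusted p = 0.056). UCP3, the uncoupling protein of skeletal muscle, rose at least 3.44-fold, and PPARGC1A, the coactivator of mitochondrial genes, rose 1.73-fold. UCP3 lost its call without 80 d replicate 1 or 2 or 120 d replicate 2 or 3. PPARGC1A lost its call without any array but 100 d replicates 1 and 3, and its next brightest probe set did not pass (log2 change 0.51, adjusted p = 0.25). The count of 4 became 1 without 80 d replicate 2, and 2 without 80 d replicate 1 or 120 d replicate 2 or 3.

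Cell division genes moved the other way. Of 63 on the array 56 passed the filter, of which 27 were lower at 120 d and none higher (4.48% of all named genes were lower), and 54 had a log2 change under 0 (median -0.88). The summed signal of the list was between 33400 and 36900 on the 80 d arrays and between 17700 and 19700 on the 120 d arrays. UBE2C, which loads ubiquitin for the anaphase-promoting complex, read 1063, 1062 and 1108 at 80 d, 644, 516 and 599 at 100 d and 274, 359 and 285 at 120 d, a fall of 3.54-fold (log2 change -1.82 ± 0.17 SE, adjusted p = 0.00075). CCNB2, a mitotic cyclin, read 389, 397 and 381 at 80 d, 328, 246 and 299.9 at 100 d and 98.4, 105 and 121 at 120 d, so that most of its fall of 3.6-fold came after 100 d. NUSAP1 and KIF23, of the mitotic spindle and midbody, fell 2.96-fold and 3.07-fold, and the D-type cyclin CCND2 fell 3.16-fold from 2471, 2622 and 2465 to 518, 849 and 1147. All 5 were called in each run without 1 array. The list's count became 13, 11 or 13 when 80 d replicate 1, 2 or 3 was left out and 15 or 16 when 120 d replicate 1 or 2 was, and 9 were called with the arrays scaled to the hybridisation controls. CDKN1A, an inhibitor of cyclin-dependent kinases that is induced as myoblasts leave the cycle, also fell, from 1307, 1296 and 1325 to 544, 194 and 219 (4.6-fold, log2 change -2.20 ± 0.34 SE, adjusted p = 0.0078), and was the 1 gene of 8 cell cycle inhibitors that passed.

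Imprinted genes, expressed from 1 parental allele and known for effects on fetal growth, were lower in 6 of 17 cases and higher in 1 (median -0.47). Of the 17, 15 had a log2 change under 0. Over all named genes 4.48% were lower and 4.21% higher. Beside NNAT, MEST, a hydrolase-like protein, read 9379, 7276 and 7458 at 80 d, 5969, 5764 and 5103 at 100 d and 2909, 2979 and 3709.7 at 120 d (2.51-fold lower). The zinc finger gene PEG3 fell 2.18-fold, from 1940 to 893, and lost its call without 80 d replicate 2 (adjusted p = 0.051). PLAGL1, a zinc finger regulator of the imprinted network, fell 2.14-fold, and MAGEL2, of the MAGE family, fell 1.99-fold; both lost their calls in most runs, 7 and 8 of 9, with adjusted p up to 0.12 and 0.14. The 6 became 2 without 80 d replicate 2, 3 without 80 d replicate 3, 100 d replicate 2 or 120 d replicate 2, and 2 with the arrays scaled to the hybridisation controls. GRB10, an adaptor that inhibits the insulin receptor, was the imprinted gene that rose (1.7-fold), a call kept only without 100 d replicate 1 or 3 (adjusted p up to 0.14 in the other runs).

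The insulin-like growth factor axis showed opposite changes in its binding proteins. IGFBP2, the binding protein abundant in fetal tissues, read 519, 548 and 663 at 80 d, 318, 245 and 318 at 100 d and 105, 148 and 138 at 120 d, a fall of 4.45-fold (log2 change -2.16 ± 0.20 SE, adjusted p = 0.00075). IGFBP3, the main carrier in the circulation, read 627, 457 and 442 at 80 d, 745, 889 and 980.4 at 100 d and 1289, 1623 and 1339.9 at 120 d, a rise of 2.81-fold (log2 change 1.49 ± 0.20 SE, adjusted p = 0.0039). Both were called in each run without 1 array. IGFBP7 rose 1.64-fold, not called without any 1 of the 80 d or 120 d arrays (adjusted p up to 0.086). Among the ligands IGF2 (16300 and 13600) and IGF1 (175 and 245) did not pass, with log2 changes of -0.27 ± 0.22 and 0.45 ± 0.27 SE, nor did the receptors IGF1R, IGF2R and INSR. Altogether 3 of 13 genes of the axis were higher (1 without any 1 of the 80 d or 120 d arrays) and 1 was lower. For all named genes the shares were 4.21% and 4.48%.

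A mixed fetal list, labelled an RNA-binding and growth program, fell in 6 of 9 genes (4.48% over all named genes). All 9 were under 0 (median -1.02). The members named here also include retinoic acid binding proteins and a tubulin. Beside CRABP1, its relative CRABP2 fell 5-fold, from 234, 302 and 287 to 48.4, 99.4 and 33.7. IGF2BP3, which binds the IGF2 messenger, read 194, 244 and 227 at 80 d and 131, 103 and 95.6 at 120 d (2.03-fold lower). The growth factor midkine (MDK) fell 2.05-fold, from 1350 to 660, and the tubulin TUBB2B, known from developing neurons, fell 2.25-fold, from 5510 to 2560. Only CRABP1 of these kept its call in all runs: CRABP2 needed every 80 d array and 120 d replicates 1 and 3, IGF2BP3 lost its call without 80 d replicate 2 (adjusted p = 0.056), and MDK and TUBB2B lost theirs in 7 of 9 runs each (adjusted p up to 0.11 and 0.12). The 6 became between 1 and 3 without any 1 of the 80 d or 120 d arrays or 100 d replicate 3, and 2 with the arrays scaled to the hybridisation controls.

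Among transcription factors of the muscle lineage the determination and differentiation factors MYOD1 (log2 change -0.02 ± 0.35 SE), MYOG (-0.54 ± 0.36) and MYF6 (0.43 ± 0.17) did not pass, and MYF5 was near the filter at 38.7 and 30.9. Of 15 factors 2 were called lower (4.48% over all named genes) and none higher. HES6, a helix-loop-helix factor that promotes myoblast differentiation, was weak at 80 d (118, 63 and 84.8) and close to 0 at 120 d (2.9, 7.3 and 2.9), at least 1.72-fold lower. It passed the signal filter only through the 80 d arrays, its 100 d values being 37.4, 48.9 and 42.4, so that it had to differ to be tested. TCF12, the partner of the MYOD1 family, read 2983, 2621 and 2786 at 80 d and 1581, 1573 and 1521 at 120 d, 1.79-fold lower (log2 change -0.84 ± 0.14 SE, adjusted p = 0.011). The TCF12 call held without any 1 array and was lost with the arrays scaled to the hybridisation controls and with no signal filter.

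Surface genes of fusing myoblasts and satellite cells fell in 4 of 14 cases and rose in 1 (median -0.17, or 0.07 and 2 lower with the arrays scaled to the hybridisation controls). Over all named genes 4.48% fell and 4.21% rose. CDH2 (N-cadherin) read 209.7, 201 and 207 at 80 d, 109.9, 54.5 and 68 at 100 d and 36, 37.4 and 42.5 at 120 d, at least 4.11-fold lower (log2 change -2.42 ± 0.25 SE, adjusted p = 0.0011), and was called in each run without 1 array. MYMK (myomaker, the membrane protein of fusion) read 177, 175 and 92.2 at 80 d and 35, 51.5 and 10.4 at 120 d, at least 2.84-fold lower, a call lost without 80 d replicate 1 or 2, 100 d replicate 2 or 120 d replicate 1 (adjusted p up to 0.11). ADAM12, a protease of the cell surface, fell 4.21-fold and the adhesion molecule NCAM1 fell 2.1-fold, calls that were lost in 7 and 5 of 9 runs (adjusted p up to 0.13 and 0.093). The tetraspanin CD9, which restrains fusion in several cell types, was the gene that rose (1.87-fold), without its call when any 80 d array was left out. The 4 became 1 without 80 d replicate 1 or 2 and 2 without 80 d replicate 3, 100 d replicate 2 or 120 d replicate 1 or 2.

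In the fibrillar matrix 6 of 47 genes fell (12.8%) and 3 rose (6.38%), against 4.48% and 4.21% of all named genes. The share that rose lies near the background. The median was -0.10, or 0.14 with the arrays scaled to the hybridisation controls. The main fibrillar collagens did not pass: COL1A1 had a log2 change of 0.06 ± 0.24 SE, COL1A2 of 0.03 ± 0.20 and COL3A1 of 0.02 ± 0.21. Among those that fell, POSTN (periostin) read 7064, 7951 and 8202 at 80 d, 3909, 3001 and 2695 at 100 d and 1000.0, 1265 and 2683 at 120 d. Replicate 3 of 120 d was above its group but below every array of 80 d, and the fall was 5.14-fold (log2 change -2.36 ± 0.34 SE, adjusted p = 0.005). VCAN (versican, a large proteoglycan) read 2953, 3162 and 3063 at 80 d and 559.8, 623 and 842 at 120 d, a fall of 4.6-fold, TNC (tenascin C) fell 5.31-fold and the collagen COL21A1 fell 3.07-fold. ELN, the elastin of elastic fibres, rose 3.18-fold, from 119.5, 140.5 and 143 to 317, 360.1 and 675, and COL15A1, a collagen next to basement membranes of muscle and vessels, rose 3.11-fold. The calls named in this paragraph held without any 1 array, and the counts stayed between 4 and 7 lower and between 2 and 3 higher. One of the 3 that rose passed the signal filter only through the 120 d arrays. In the basement membrane itself the laminin chain LAMB2 rose 1.84-fold (1551, 1482 and 1452 at 80 d and 2917, 2712 and 2632 at 120 d), as 1 of 9 genes.

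Sterol synthesis fell in 5 of 18 genes (4.48% over all named genes), with none higher (median -0.63). SQLE (squalene epoxidase) read 835, 662 and 726 at 80 d, 323, 517 and 449 at 100 d and 172, 269.5 and 104 at 120 d, 4.37-fold lower (log2 change -2.13 ± 0.33 SE, adjusted p = 0.0079). INSIG1, the sterol sensor that restrains the pathway and is itself a target of it, read 742, 798 and 760.4 at 80 d and 309, 286 and 344 at 120 d (2.46-fold lower). HMGCS1, an early enzyme of the pathway, fell 2.35-fold, not called without 80 d replicate 2 or 3 (adjusted p up to 0.055). The 5 became 2 without 80 d replicate 2 or 3, and 3 without 80 d replicate 1, without 120 d replicate 2 or 3, and with the arrays scaled to the hybridisation controls.

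Signalling lists were mixed, and 4.21% of all named genes were called higher and 4.48% lower. A single call in a list, as in the secretory pathway (4.35%) or the immediate early genes (6.25%), lies near those shares. None of 24 genes of the myostatin, activin and BMP list passed (median -0.07), among them MSTN, the brake on muscle growth (log2 change -0.48 ± 0.37 SE), and FST (follistatin, its antagonist, -0.06 ± 0.28). In Wnt signalling 4 of 24 fell and 1 rose (median -0.12), and with the arrays scaled to the hybridisation controls 1 was lower and 2 were higher (median 0.12). The secreted inhibitor SFRP1 read 724, 894 and 824 at 80 d and 357, 394 and 420.4 at 120 d (2.08-fold lower), whereas a second secreted inhibitor, FRZB, read 556, 484 and 520.3 at 80 d and 1671, 1692 and 966 at 120 d (2.69-fold higher). SFRP1 was called in each run without 1 array, FRZB was not without 80 d replicate 2 or 3 or 120 d replicate 1 or 2, and the count of 4 became 1 or 2 without any array but 100 d replicates 1 and 3. None of 60 ribosomal proteins passed (median -0.01), while RPL3L, the muscle paralogue outside that list, rose as given above. None of 5 genes of thyroid and glucocorticoid hormone action passed. In the secretory pathway 1 of 23 genes fell, CALR (calreticulin, a calcium-binding chaperone), 2.55-fold, from 4289.7, 3108 and 4082 to 1542, 1632 and 1309. Of 14 genes of serine synthesis and the amino acid response 1 rose, VLDLR (a lipoprotein receptor), 2.53-fold. CALR and VLDLR were called in each run without 1 array, while another probe set of VLDLR did not pass (log2 change 0.52, adjusted p = 0.25). In Notch signalling 2 of 10 rose, in protein breakdown 3 of 15 rose, and among heat shock and stress proteins 1 of 15 rose and 2 fell, and every one of these calls was lost without at least 4 of the 9 arrays in turn, the protein breakdown count reaching 0 without any 1 of the 80 d arrays. Of 16 immediate early genes, which respond to tissue handling, IER3 alone passed, 5.48-fold higher (280.4, 286 and 259.9 at 80 d and 1818, 1101 and 1718 at 120 d).

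**Figure D4:**
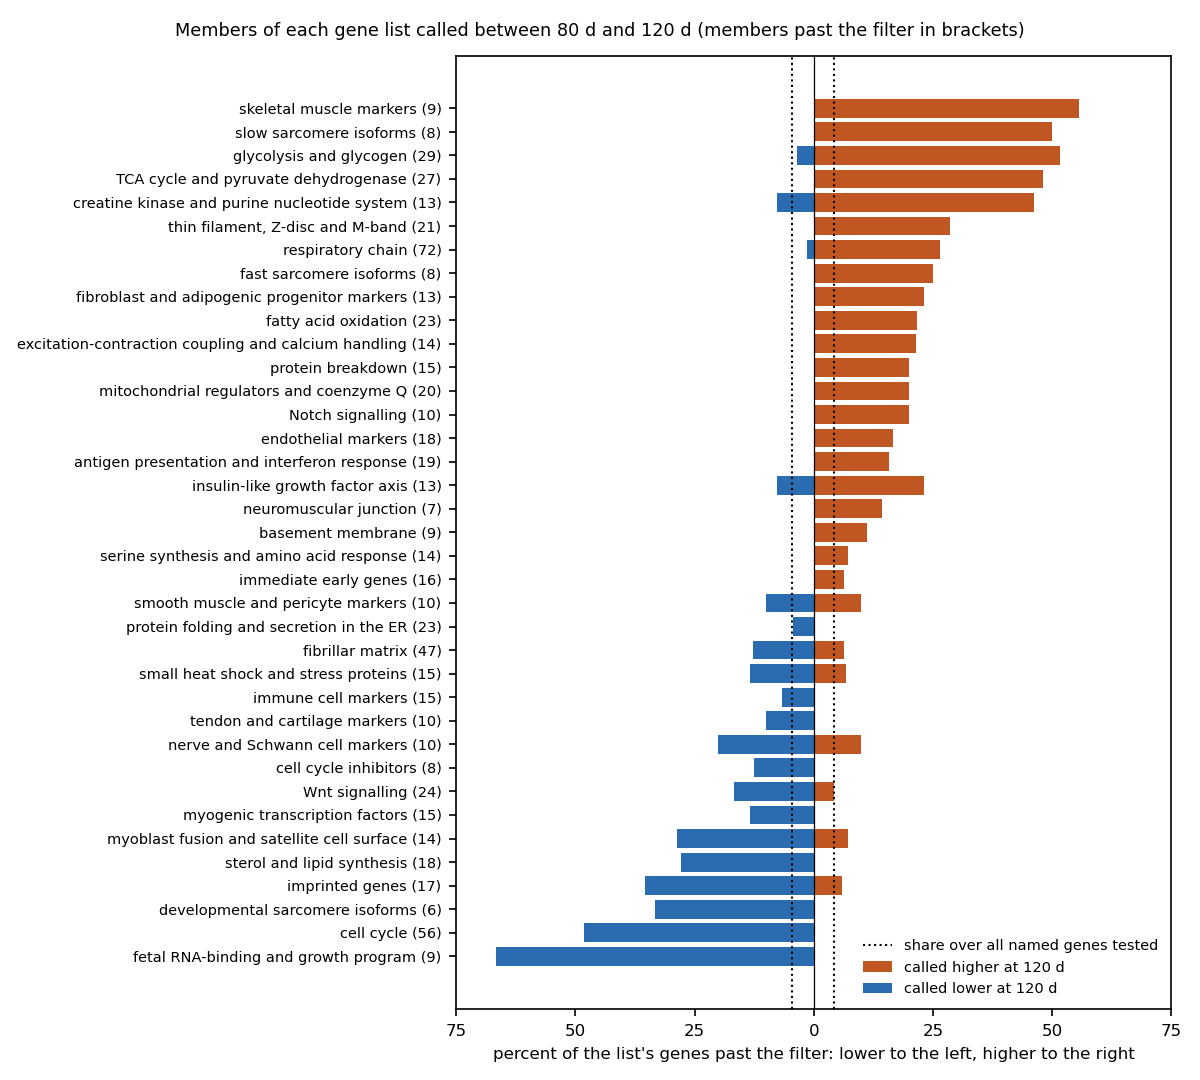
Percent of the members past the filter that were called higher (orange, to the right) or lower (blue, to the left) at 120 d for each gene list with at least 1 call, with the number of members past the filter in brackets and dotted lines at the shares over all named genes (4.21% higher, 4.48% lower). Muscle markers, slow isoforms and the lists of energy metabolism extend to the right, and the fetal program, the cell cycle and the imprinted genes extend to the left.

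Markers of other cell types were read beside these lists, since the tissue holds more than fibres. The background is again 4.21% of all named genes called higher and 4.48% called lower. Endothelial markers were higher in 3 of 18 cases and lower in none (median 0.50), and their summed signal went from between 6930 and 7650 at 80 d to between 10300 and 11300 at 120 d. PECAM1, of vessel walls, read 2005, 1829 and 2117 at 80 d and 3074, 3594 and 3746 at 120 d (1.75-fold, adjusted p = 0.02), a call that needed every 80 d array and 120 d replicates 2 and 3. The 3 became 0 without 80 d replicate 2 or 3 or 120 d replicate 2 or 3, and 1 without 80 d replicate 1 or 100 d replicate 2 or 3. Fibroblast and adipogenic progenitor markers were higher in 3 of 13 cases and lower in 0 (median 0.11), with 8 above 0 and 5 under 0. For 1 gene of the list a less bright probe set was called lower. The summed signal of the list was 11100 to 11700 at 80 d and 14300 to 16800 at 120 d, and S100A4 rose 3.64-fold among the members. Smooth muscle and pericyte markers split, ACTA2 (smooth muscle actin) falling 2.02-fold and MYH11 (smooth muscle myosin) rising 2.52-fold, calls that were lost in 5 and 6 of 9 runs without 1 array. The ACTA2 call was also lost with the arrays scaled to the hybridisation controls. The smooth muscle and pericyte markers had a summed signal of 7860 to 9120 at 80 d and 5840 to 6520 at 120 d.

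Of 10 nerve and Schwann cell markers 2 fell and 1 rose, and their sum was between 1540 and 1640 at 80 d and between 1250 and 1430 at 120 d. UCHL1, a ubiquitin hydrolase of neurons, read 482, 545 and 485 at 80 d and 91.8, 137 and 145 at 120 d (4.11-fold lower), and S100B, of Schwann cells and other glia, rose 2.48-fold. Both held in each run without 1 array, while the 2 lower became 1 without 80 d replicate 1 or 3, 100 d replicate 2 or any 120 d array, and with the arrays scaled to the hybridisation controls. None of 8 erythroid markers passed, with HBB at 18800 and 12500 and a summed signal of 16100 to 26800 and 14300 to 15300, and none of 7 adipocyte markers did. Of 10 tendon and cartilage markers SPP1 (osteopontin) fell, from 4229, 4506 and 2904 to 542, 675 and 1310.2 (4.87-fold), while the sum of the list overlapped (23200 to 24100 and 14800 to 28000). Of 15 immune markers 1 was lower, a call lost in 8 of 9 runs without 1 array and with the arrays scaled to the hybridisation controls, and the list's sums were 1630 to 2060 and 1800 to 1930. In antigen presentation 3 of 19 genes were higher (1 without any 1 of the 80 d arrays or 120 d replicate 1 or 2), with PSMB9, an immunoproteasome subunit, at least 3.1-fold higher. The part of these cell types in the results above was not tested.

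The 100 d arrays were then used to place the middle stage. For 991 of the 1052 called probe sets (94.2%) the 100 d mean log2 signal lay between those of 80 d and 120 d, against 46.6% of all probe sets tested. A call requires the outer stages to stand far apart, which by itself leaves more room between them, so the share is a description. By 100 d the median called probe set had gone 49% of its way on the log2 scale (quartiles 34.3% and 64.4%). Those called higher had a median of 53.6% and those called lower of 43.7%, and the order was the same on each of the 3 arrays of 100 d (50.7%, 58.6% and 53.7% for higher; 42.5%, 45.9% and 46% for lower). The 3 arrays were read against the same called set and the same 80 d and 120 d means, so they are not independent of each other. With array medians set equal the medians lay closer together, at 50.7% and 47.1%, and the part of array scaling in the difference was not tested. A test of the second difference, which asks whether the first 20 d brought a different change from the second 20 d, called none of 14547 probe sets (0%) with limma, while 844 had an unadjusted p under 0.05 (5.8%). The straight line in days called 1036 probe sets in place of 1052.

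**Figure D5:**
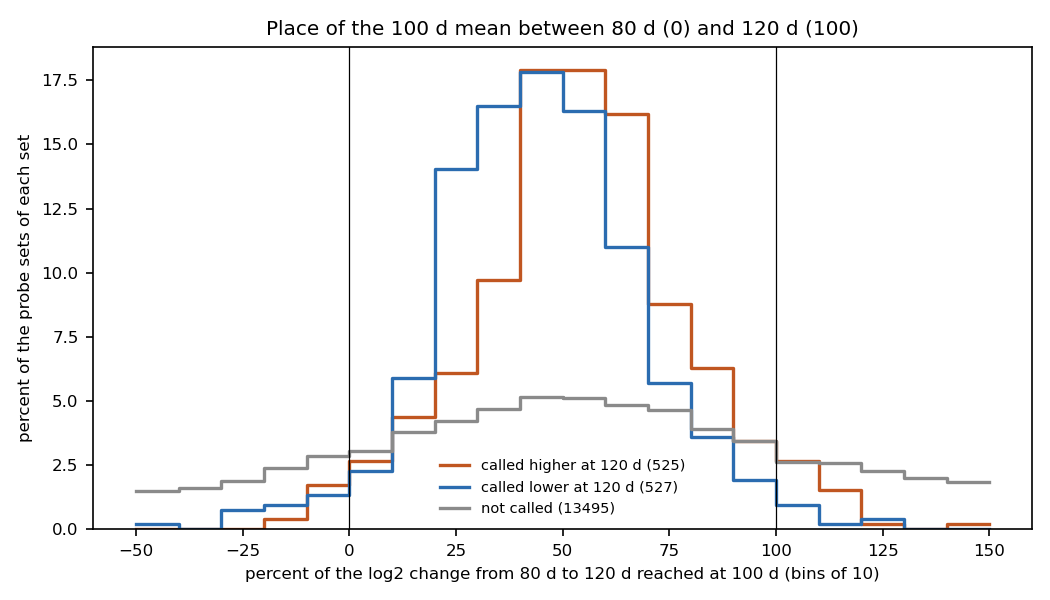
Distribution of the percent of the log2 change from 80 d to 120 d that was reached at 100 d, in bins of 10, as the percent of each set of probe sets (orange, 525 called higher; blue, 527 called lower; grey, 13495 not called), where 0 is the 80 d mean and 100 the 120 d mean. Called probe sets gather between 0 and 100 with medians of 53.6% and 43.7%, and 4818 of those not called and 1 called lie outside the range drawn.

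The place of 100 d varied between genes, none of which passed the test of the second difference. Of 312 named genes called with a fold of at least 2 and no mean under 50, 36 had gone over 75% of their way by 100 d and 33 under 25%. At the early end COL15A1 read 1901, 1675 and 1435 at 80 d, 4653, 5342 and 5006 at 100 d and 6662, 4768 and 4316 at 120 d, so that the 100 d and 120 d arrays overlapped and 97.2% of the change had passed by 100 d. ACTA2 behaved likewise (4704, 3892 and 4622 at 80 d, then 2829.6, 2021 and 1771 at 100 d and 2495, 2210.1 and 1861 at 120 d). At the late end MYL3 gave 105, 113 and 39.5 at 100 d, no higher on average than 90.4, 74.6 and 99.7 at 80 d, before the values of 120 d given above. MAPK8IP1 read 446, 316 and 232 at 80 d, then 397, 232 and 191 at 100 d and 63.8, 72.6 and 34.1 at 120 d, with overlap between 80 d and 100 d and 11.6% of its fall by 100 d. For comparison, ATP2A1 had gone 49% of its way and NNAT 46.8%. Among the called members of the lists the median percent by 100 d was 29.7% in the respiratory chain, 32.8% in the TCA cycle and pyruvate dehydrogenase and 36.4% in glycolysis and glycogen metabolism. It was 36.7% in the cell cycle and 56.3% in the fibrillar matrix.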

How the data were processed

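RNA of longissimus dorsi was hybridised to a bovine expression array, 1 animal per array, and the authors deposited MAS5 signal intensities on a linear scale, with each array scaled to a mean of 200. For the MAS5 version: not given in the sources. Arrays were grouped by the stage in their labels. Signals were taken to log2 with no offset (floor 0.1), 112 control probe sets were removed, and probe sets at 50 or more on at least 3 of 9 fetal arrays were kept. One mean per stage was fitted to the 9 fetal arrays with limma 3.58.1 (lmFit and eBayes) in R 4.3.3, with contrasts for 120 d minus 80 d and for the second difference (120 d minus 100 d against 100 d minus 80 d), and Benjamini-Hochberg adjustment over 14547 probe sets. A call was an adjusted p under 0.05. P-values weigh the differences between stages against the spread between arrays of 1 animal each, so variation of animals and of arrays is not separated. The number of arrays limits the precision.

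Genes were named from the platform annotation (13292 probe sets with 1 symbol, 86 with several, 10638 with none), 1 probe set per gene by the highest mean log2 signal over the fetal arrays. A fold with 1 geometric mean under 50 was computed against 50 and written as at least that fold. Means printed with signals are arithmetic. The text names the top 12 genes by fold in each direction, up to 5 called members per direction of each of 43 lists, cell type markers, and list members that did not pass, with their values. The gene lists and the comparison were chosen with earlier results of these data known, so lists are described by counts and medians, with no test. Alternatives covered array scaling, offset, filter, arrays in the fit, moderation, model, threshold, replicate block, the actin 3′/5′ ratio as a covariate and leaving out each array. The GAPDH ratio as a covariate was added after seeing the data. On simulated data for 120 d minus 80 d over 14547 probe sets, with 50 changed probe sets per fold, the share called was 4% at a fold of 1.5, 44% at 2, 88% at 3 and 78% at 4, beside 8 false calls. These shares come from a single draw with far fewer changed probe sets than were called in the data. Figures were drawn with matplotlib 3.10.9. A planned search of promoters for motifs was not run, as no sequence tables were used here.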

Additional observations from a re-analysis of the deposited data

How the results depend on the processing

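The call set kept its direction and moved by less than 1.5 times with array medians set equal (913), quantile normalization (1047), scaling without the 100 brightest probe sets (1059), an offset of 16 (1172), stricter filters (1280 at 100 or more, 1110 at 5 arrays), limma's trend and robust options (1419) and a straight line in days (1036). The same held with the GAPDH ratio as a covariate (845, with 455 higher and 390 lower), a ratio that overlapped between 80 d and 120 d. The call set was smaller with no filter (349, 193 higher and 156 lower), the 80 d and 120 d arrays alone (644, 327 and 317), all 15 arrays (700, 425 and 275), the 0.01 threshold (281, 158 and 123), a moderated F over the stages (496, 263 and 233) and the actin ratio as a covariate (2, 1 and 1). The cause was not tested, except that no filter raised the number of probe sets tested to 24016. Scaling to the hybridisation controls gave 805 calls, 170 of them lower. Without 1 array the count ran from 404 to 1058, with 235 to 537 higher and 169 to 521 lower. The replicate numbers did not meet the rule for pairing the animals, since not every same-number correlation of deviations passed 0.1 (-0.034 to 0.246 over 9 same-number pairs, -0.228 to 0.135 over 18 others). The 3 pairs numbered 1 had 0.246, 0.192 and 0.22, a hint from the data rather than the design, and the fit with the number as a replicate block called 987 (495 higher and 492 lower), of which 837 were among the 1052.

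The second difference called 0 probe sets, 2 with trend and robust options and 0 to 1 without 1 array. The share of called probe sets with 100 d between the outer stages was 96.4% with hybridisation-control scaling, 96.6% with no filter, 92.8% with the filter at 100, 95.4% with all 15 arrays, 98.2% at the 0.01 threshold, 100% with the actin covariate, and 90.9% to 97.1% without 1 array. The median percent reached by 100 d among those called lower was 47.1% with medians equal (50.7% among those called higher) and 46.1% with all 15 arrays (52.4%). Without 1 array that median ran from 41.8% to 45.9%, and the one for higher from 51.6% to 58.3%. With the actin covariate the medians were 71.9% for higher and 40.5% for lower. Among named genes the direction turned for CYP51A1 with the actin covariate (0.17) and, in the next brightest probe set, for DUSP12 (-0.69), RGN (1.53) and UQCRC2 (-0.07). Of 36 genes with another probe set, 22 were called the same way in it and 11 kept their direction without passing, ART3 (0.61), COX8B (0.08), LDHA (0.01), MYH7 (0.31), PDHA1 (0.58), PPARGC1A (0.51) and VLDLR (0.52) among them. In the simulation 4% of changes of 1.5-fold were called. It held far fewer changed probe sets than were called in the data, which makes the adjusted threshold harder to pass. The share of such changes missed here is therefore not known.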
